A study of Danio rerio with 2 samples.

Results

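The COUP-TF genes *nr2f1a*, *nr2f1b*, *nr2f2* and *nr2f5* encode orphan nuclear receptors, and they were taken by symbol as 4 of the 32057 genes listed in single-cell data from the embryonic zebrafish heart. The question here is in which endothelial, valve and blood cells each of them was detected, and whether the levels differed between 48 and 72 hours post fertilization (hpf). Their identifiers in the files are ENSDARG00000052695 (*nr2f1a*), ENSDARG00000017168 (*nr2f1b*), ENSDARG00000040926 (*nr2f2*) and ENSDARG00000033172 (*nr2f5*). All 4 had UMIs (unique molecular identifiers, each standing for 1 captured transcript) in both libraries.

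COUP-TF proteins bind DNA as dimers and mostly act as repressors, recruiting corepressors such as those of the BCL11 family. In the mouse, Nr2f2 (COUP-TFII) maintains venous identity by restraining Notch signalling, and in lymphatic endothelial cells it partners with Prox1. In zebrafish, *nr2f1a* is needed in cardiomyocytes for the atrial chamber, *nr2f1b* acts with *nr2f2* in vein and lymphatic formation, and *nr2f5* works with other family members in the facial skeleton.

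The study isolated endocardial cells (EdCs), the endothelial lining of the heart, to look for subpopulations and for cells with blood gene expression. Hearts of Tg(kdrl:nls-mCherry); Tg(cd41:GFP) fish were dissected by hand, dissociated and sorted. The *kdrl* promoter marks endothelial nuclei red and the *cd41* promoter marks blood progenitors and thrombocytes green, and cells positive for mCherry alone were combined with cells positive for both colours. Both libraries shared this genotype and had no further treatment or control, and the number of pooled hearts is not given in the sources used here. Each age had a single library, so age, library and sort cannot be told apart, no difference has a replicate check, and no p-value is given. Intervals are 95% intervals that cover counting error only.

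At 48 hpf 2665 cells gave 30735426 UMIs, with a median of 10411 in a cell. At 72 hpf 4125 cells gave 33721297 UMIs, with a median of 6316. The libraries shared 4 cell barcodes. Cells fell into 15 clusters, made without the COUP-TF family genes and named from marker lists. Most clusters came almost wholly from 1 library, those of the valve and lymphatic classes included. The *aqp8a.1*/*wnt5b* endocardial-like class had 2 cells at 48 hpf and 711 at 72 hpf, and the *vcam1b* endocardial-like class had 7 and 1262. A cluster led by *mcm5* and other DNA replication genes had 1263 cells at 48 hpf and 0 at 72 hpf. It is called the *mcm5*/*fstl1a* cluster, because its 50 leading genes held all 7 of the *fstl1a* endocardial markers, but it stayed unnamed because its first 10 held 6 S-phase markers and 0 of those 7. Classes with cells at both ages were lymphatic endothelial-like (196 and 118), valve endocardial-like (613 and 380), G2/M-like (498 and 288) and a *cxcr4a*/*cfd* cluster (65 and 230). The valve interstitial-like class (345 cells), the *cdh4*/*gstm.3*/*esr1*-like class (403) and the blood-like class (388) are given at 72 hpf, where nearly all of their cells were. All 9 of 9 pan-endothelial markers were detected in every class, with summed levels of 798 to 7729 CPM (the gene's UMIs for every 1000000 UMIs of the class) outside the blood-like class and 161 CPM inside it.

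*nr2f1a* was highest in lymphatic endothelial-like cells and among the lowest in blood-like cells and the *cxcr4a*/*cfd* cluster. It reached 205 CPM (186–224, 455 UMIs) in lymphatic endothelial-like cells at 48 hpf and 229 CPM (195–268, 159 UMIs) at 72 hpf. The *aqp8a.1*/*wnt5b* EdCs came next with 82.6 CPM (74.4–91.4), followed by the G2/M-like cells with 32.9 CPM (29.0–37.2) at 48 hpf and 52.1 CPM (44.3–60.9) at 72 hpf. The *mcm5*/*fstl1a* cluster had 30.5 CPM (27.6–33.7), within the counting error of the G2/M-like cells of the same library.

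The *vcam1b* EdCs stood below all of these with 18.1 CPM (15–21). Valve classes were lower again. The valve interstitial-like cells had 7.76 CPM (4.81–11.9), and the valve endocardial-like cells had 4.48 CPM (3.00–6.43) at 48 hpf and 3.99 CPM (1.99–7.14) at 72 hpf. The intervals of the valve classes and the *cdh4*/*gstm.3*/*esr1*-like class (3.47 CPM, 1.66–6.37) overlapped, so no order among them was detectable at this depth. The *cxcr4a*/*cfd* cluster had 2 UMIs at each age, 2.57 CPM (0.311–9.29) at 48 hpf and 0.906 CPM (0.110–3.27) at 72 hpf, the latter below the interstitial-like cells. Within the interstitial-like cells the UMIs sat in few cells. At a Leiden resolution of 1.0, 25 cells led by *rbp4* and *fbln5* split off with 13 UMIs in 5 cells (62.9 CPM, 33.5–108), and the other 324 interstitial-like cells had 8 UMIs (3.14 CPM, 1.36–6.19). Blood-like cells had 5 UMIs, or 0.690 CPM (0.224–1.61), which was not distinct from the *cxcr4a*/*cfd* cluster.

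*nr2f1b* had a different order, with the valve endocardial-like cells on top at both ages. There it reached 36.8 CPM (32.2–41.7, 238 UMIs) at 48 hpf and 19.2 CPM (14.4–25.1, 53 UMIs) at 72 hpf. At 48 hpf the G2/M-like cells followed with 15.8 CPM (13–19) and the *mcm5*/*fstl1a* cluster with 9.58 CPM (7.97–11.4). At 72 hpf the *aqp8a.1*/*wnt5b* EdCs had 5.73 CPM (3.74–8.39). The other classes were at 2.43 CPM or less, and these values rest on 7 UMIs or fewer each. Lymphatic endothelial-like cells, the highest class for *nr2f1a*, had 5 UMIs of *nr2f1b* at 48 hpf (2.25 CPM, 0.730–5.25) and 1 at 72 hpf. The valve interstitial-like cells had 3 UMIs (1.11 CPM, 0.229–3.24). In the *cxcr4a*/*cfd* cluster no UMI was found at either age, which allows up to 3.86 CPM at 48 hpf and 1.36 CPM at 72 hpf (3 counts of each total).

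*nr2f2* was the most widely detected of the 4 genes across classes. It was highest in lymphatic endothelial-like cells, with 152 CPM (137–170) at 48 hpf and 148 CPM (121–180) at 72 hpf. The *vcam1b* EdCs had 71.9 CPM (66.0–78.1) and the *aqp8a.1*/*wnt5b* EdCs 67.6 CPM (60.3–75.6). The G2/M-like cells had 59.6 CPM (54.3–65.3) at 48 hpf and 67.7 CPM (58.7–77.7) at 72 hpf, and the *mcm5*/*fstl1a* cluster 55.0 CPM (51.1–59.2). These endocardial, dividing and unnamed cells therefore covered a narrow range for *nr2f2*, while they covered a wide one for *nr2f1a*. Valve endocardial-like cells had 40.5 CPM (35.7–45.7) at 48 hpf and 12.7 CPM (8.84–17.6) at 72 hpf. The *cdh4*/*gstm.3*/*esr1*-like cells had 32.6 CPM (26.3–39.9), valve interstitial-like cells 9.98 CPM (6.58–14.5) and blood-like cells 2.48 CPM (1.47–3.92).

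*nr2f5* was near the limit of detection, with 115 UMIs in 102 cells at 48 hpf and 60 UMIs in 58 cells at 72 hpf and never more than 3 in a cell. Its top value was in lymphatic endothelial-like cells, with 7.19 CPM (4.11–11.7) at 48 hpf and 11.5 CPM (4.98–22.7) at 72 hpf. The other non-blood classes lay between 1.3 and 6.43 CPM. Most of these intervals overlapped. Exceptions were the *mcm5*/*fstl1a* cluster (3.71 CPM, 2.73–4.92) and the G2/M-like cells at 48 hpf (3.73 CPM, 2.50–5.35), which lay above the *vcam1b* EdCs of the other library (1.3 CPM, 0.625–2.40).

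**Figure D1:**
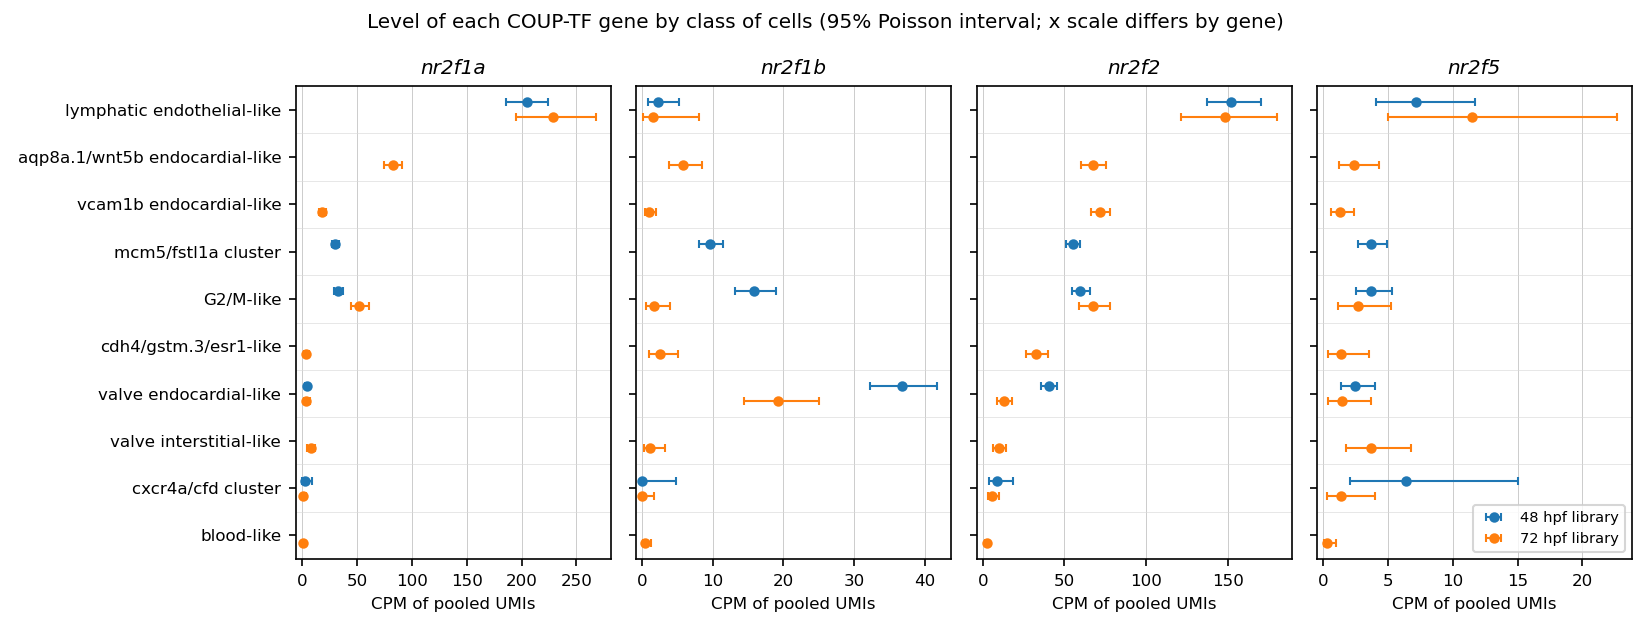
Level of each COUP-TF gene in each class of cells, as CPM of the pooled UMIs (x axis, a separate linear scale per gene) at 48 hpf (blue) and 72 hpf (orange), with bars for the 95% Poisson interval. *nr2f1a* and *nr2f2* peak in lymphatic endothelial-like cells (205 and 152 CPM at 48 hpf), whereas *nr2f1b* peaks in valve endocardial-like cells (36.8 CPM at 48 hpf).

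The shares of cells with a UMI gave the same picture, read against the blood-like cells as background. *nr2f1a* was found in 75.5% of lymphatic endothelial-like cells at 48 hpf (68.9–81.4%, median depth 10455 UMIs) and in 65.3% at 72 hpf (55.9–73.8%, median 5399). It was found in 36.0% of *aqp8a.1*/*wnt5b* EdCs (median 5716 UMIs), 9.27% of *vcam1b* EdCs (median 5442) and 1.03% of blood-like cells, although these were the deepest (median 18206). With every cell thinned to 2000 UMIs, which left out no cell, the shares were 29.6%, 33.9%, 14.6%, 3.72% and 0.258% in the same order. The lymphatic share that was lower at 72 hpf with all UMIs was thus not lower at equal depth. *nr2f1b* was found in 21.4% of valve endocardial-like cells at 48 hpf and 8.42% at 72 hpf (6.85% and 4.21% thinned), against 0.773% of blood-like cells. *nr2f2* was found in 67.3% and 50.8% of lymphatic endothelial-like cells (19.9% and 26.3% thinned), 32.2% of *vcam1b* EdCs (14.7% thinned), 29.4% of *aqp8a.1*/*wnt5b* EdCs (12.0% thinned) and 2.84% of blood-like cells (0% thinned). The *nr2f1b* share in *vcam1b* EdCs, 0.555%, was near the blood-like share, but at a lower depth. In CPM the values were 0.913 (0.367–1.88, 7 UMIs) in *vcam1b* EdCs and 0.414 (0.0853–1.21, 3 UMIs) in blood-like cells. These intervals overlapped, so *nr2f1b* in *vcam1b* EdCs was not distinct from this background.

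Single cells could hold many transcripts of these genes. The highest count in 1 cell was 16 UMIs for *nr2f1a* and 11 for *nr2f2*, both in the deep G2/M-like class at 48 hpf (median 15218 UMIs). For *nr2f1b* it was 8 in the valve endocardial-like class. At least 2 UMIs of *nr2f1a* were present in 50.0% of lymphatic endothelial-like cells at 48 hpf (median 10455 UMIs). At 72 hpf, at medians of 5399 to 5716 UMIs, the shares were 30.5% of lymphatic endothelial-like cells, 11.8% of *aqp8a.1*/*wnt5b* EdCs and 1.35% of *vcam1b* EdCs.

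The classes also divided their COUP-TF UMIs differently among the 4 genes. Capture can differ between genes, so the division is compared between classes and not read as the ratio of the genes within one. In lymphatic endothelial-like cells *nr2f1a* took 55.8% of the UMIs of the 4 genes at 48 hpf and 58.7% at 72 hpf, and in *aqp8a.1*/*wnt5b* EdCs it took 52.2%. In *vcam1b* EdCs *nr2f2* took 77.9% and *nr2f1a* 19.7%. In valve endocardial-like cells *nr2f1b* took 43.7% at 48 hpf and 51.5% at 72 hpf, against 0.613% and 0.369% in lymphatic endothelial-like cells. Summed over the 4 genes, the level was 366 and 390 CPM in lymphatic endothelial-like cells, 158 CPM in *aqp8a.1*/*wnt5b* EdCs, 92.2 CPM in *vcam1b* EdCs, 84.2 and 37.3 CPM in valve endocardial-like cells and 3.86 CPM in blood-like cells.

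**Figure D2:**
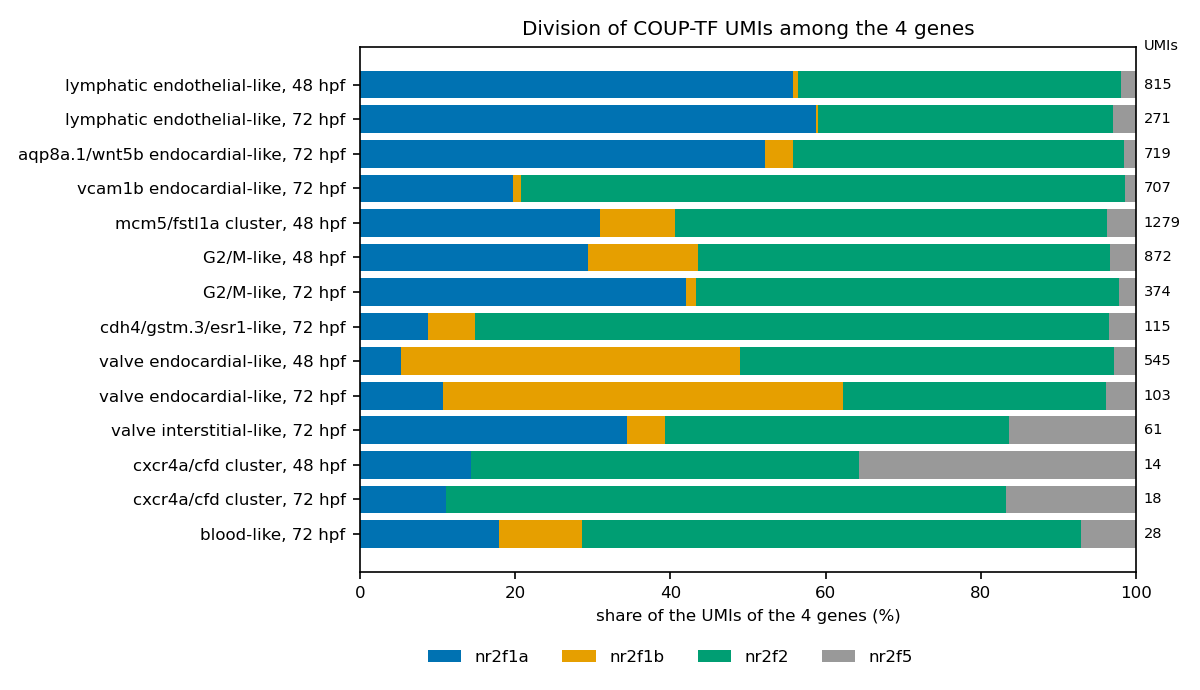
Share of the UMIs of the 4 COUP-TF genes taken by each gene (x axis, percent) in each class and library (rows), with the number of UMIs behind each bar at its right. *nr2f1b* takes 43.7% in valve endocardial-like cells at 48 hpf and 0.613% in lymphatic endothelial-like cells, and bars with few UMIs (14 to 28 in the *cxcr4a*/*cfd* and blood-like rows) are imprecise.

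The comparison of *aqp8a.1*/*wnt5b* with *vcam1b* EdCs at 72 hpf asks whether the COUP-TF genes differ between the main groups of chamber EdCs. *nr2f1a* was 4.55-fold higher in the *aqp8a.1*/*wnt5b* EdCs (3.74–5.57; 82.6 against 18.1 CPM). *nr2f2* did not differ beyond counting error, at a ratio of 0.941 (0.815–1.08). *nr2f1b* had a ratio of 6.27 (2.7–17), but on 26 against 7 UMIs. *nr2f5* had a ratio of 1.86 (0.716–4.88) on 11 against 10 UMIs.

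To place such ratios among all genes, genes with at least 10 CPM in either class were compared, and a gene was counted as higher or lower when the ratio of CPM + 1 passed 2-fold. A gene that reached 10 CPM in only 1 of the classes entered through the class where it was higher. Of the compared genes 2.51% were higher in the *aqp8a.1*/*wnt5b* EdCs and 1.77% were lower. Of the 4 COUP-TF genes 2 reached 10 CPM, of which *nr2f1a* was higher and *nr2f2* was neither. Only 0.540% of the compared genes had a larger ratio than *nr2f1a*. Cells were also chosen by their own markers, at least 2 UMIs of *aqp8a.1* and *wnt5b* and none of *vcam1b*, or the reverse. This gave the same calls but a smaller *nr2f1a* ratio. In 316 against 338 such cells at 72 hpf *nr2f1a* was at 70.3 and 28.2 CPM, a ratio of 2.49 (1.87–3.35), and *nr2f2* had a ratio of 0.838 (0.677–1.04). In that comparison 3.65% of genes were higher and 2.26% were lower, and among the COUP-TF genes at 10 CPM *nr2f1a* was higher and *nr2f2* neither. Among gated cells within the G2/M-like class alone (41 against 36 cells), *nr2f1a* had a ratio of 2.37 (1.26–4.74) and *nr2f2* was lower, with 50.5 against 103 CPM and a ratio of 0.490 (0.281–0.836). With so few cells 2-fold differences were common, as 12.4% of genes were higher and 9.61% lower. There 9.91% of genes had a larger ratio than *nr2f1a* and 9.56% a smaller one than *nr2f2*. The *nr2f1a* difference was present in each cell cycle phase, with 86.5, 68.7 and 86.6 CPM in *aqp8a.1*/*wnt5b* EdCs scored as G1, S and G2/M against 20.4, 15.7 and 16.1 CPM in *vcam1b* EdCs.

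Most genes of the pathways linked to COUP-TFs stayed within 2-fold between these chamber EdCs. So did most compared genes, of which 2.51% were higher and 1.77% lower. Of the other family genes, the EAR2-type receptor gene *nr2f6b* was higher (12.8 against 3.65 CPM, ratio 3.50, 2.19–5.70), and *nr2f6a* was not (ratio 1.17, 0.912–1.49). Of 12 compared cofactor and partner genes, 11 were neither and 1 was lower, *bcl11aa*, a BCL11-family corepressor gene (3.52 against 11.7 CPM, 3.33-fold lower). The lymphatic factor gene *prox1a* had a ratio of 0.531. None of 9 venous genes passed 2-fold, with ratios from 0.548 for the scavenger receptor gene *stab1* to 1.50 for the apelin receptor gene *aplnra*.

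Of 14 arterial and Notch genes, 2 were higher and 2 lower, larger shares than the 2.51% and 1.77% over all compared genes. The water channel gene *aqp1a.1* had a ratio of 22.3 and the receptor gene *notch3* one of 3.07, while the ligand gene *dlc* was 5.96-fold lower and the Notch target *hey2*, a repressor in arterial and valve endothelium, was 2.28-fold lower (11.5 against 26.1 CPM). Of 6 retinoic acid genes 1 was lower, *cyp26b1*, which encodes a retinoic acid-degrading enzyme (2.14-fold). The median log2 ratios of the cofactor, venous, arterial and retinoic acid lists were 0.00, 0.14, −0.26 and −0.07, beside 0.09 over all compared genes.

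**Figure D3:**
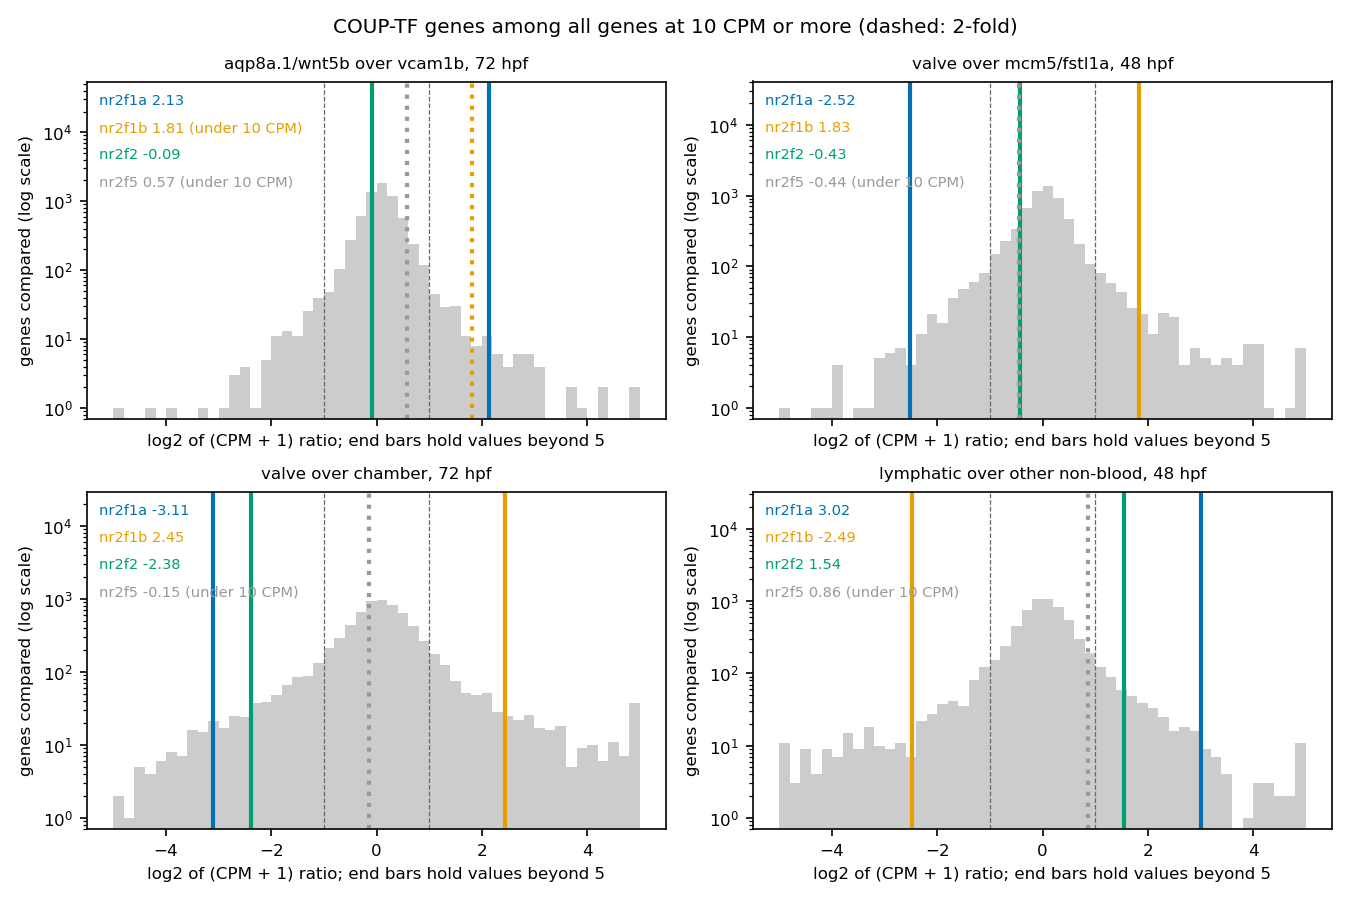
Log2 ratio of CPM + 1 for all genes with at least 10 CPM in either class (grey bars, number of genes on a log axis) in 4 comparisons, with coloured lines for the COUP-TF genes (dotted where the gene was under 10 CPM in both classes) and dashed lines at 2-fold. *nr2f1a* lies at 2.13 in *aqp8a.1*/*wnt5b* over *vcam1b* EdCs and at −3.11 in valve over chamber EdCs at 72 hpf, where *nr2f1b* lies at 2.45.

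Valve endocardial-like cells were compared with the chamber EdCs of the same library. At 48 hpf no named chamber class had enough cells, so the unnamed *mcm5*/*fstl1a* cluster was used in its place. At resolution 0.3, and with family genes allowed among the clustering genes, no such cluster was formed and the comparison could not be made. At resolution 0.3 the valve endocardial-like class itself held only 7 cells of 48 hpf. *nr2f1b* was 3.84-fold higher in the valve (3.07–4.80; 36.8 against 9.58 CPM), whereas *nr2f1a* was 6.82-fold lower (ratio 0.147, 0.0970–0.214). *nr2f2* was modestly lower, with a ratio of 0.735 (0.636–0.848). These ratios depend on the cells taken as chamber. Clustered alone, this library gave groups led by *dcn* and by *rhag*, described below. They had 59.1 and 7.64 CPM of *nr2f1a*, and 4.40 and 16.9 CPM of *nr2f1b*. Of the compared genes 5.36% were higher and 4.87% lower, and of the COUP-TF genes at 10 CPM 1 was higher, 1 lower and 1 neither.

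At 72 hpf the valve endocardial-like cells were set against the *aqp8a.1*/*wnt5b* and *vcam1b* EdCs together (1973 cells). *nr2f1b* was 7.11-fold higher in the valve (4.52–11.3; 19.2 against 2.70 CPM). *nr2f1a* was 10.6-fold lower (3.99 against 42.1 CPM) and *nr2f2* 5.54-fold lower (12.7 against 70.3 CPM). Here 10.9% of genes were higher and 9.16% lower, so that 2-fold differences were common, and 3 of 3 COUP-TF genes at 10 CPM passed. Thus the pooled level of *nr2f1b* differed between these classes in the opposite direction to those of *nr2f1a* and *nr2f2*.

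The summed level of 11 cardiomyocyte genes was 406 CPM at 48 hpf and 835 CPM at 72 hpf in the valve class, against 2.76 to 472 CPM in the other classes. Most of it came from the troponin gene *tnnt2a*, with 337 CPM at 48 hpf and 810 CPM at 72 hpf. The cardiac myosin light chain gene *myl7* had 0.463 and 0.725 CPM there, against 253 CPM in the valve interstitial-like cells. The part of muscle RNA in the COUP-TF levels was not tested.

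Among the listed pathways, 9 of 16 arterial and Notch genes were higher in the valve and 3 were lower at 72 hpf (median log2 ratio 1.38, beside 0.07 over all genes), and *hey2* had 464 against 20.6 CPM. *hey2* and *notch1b*, both of this list, are among the markers used to name the valve class, so their ratios are no separate evidence. Of 8 venous genes 3 were lower and 1 higher (median −0.87). At 48 hpf 3 of 15 arterial and Notch genes were higher and 1 lower (median 0.35, beside 0.04 over all genes), and 2 of 8 venous genes were lower.

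Clustering the 48 hpf library alone gave 2 valve endocardial-like clusters, one led by the annexin gene *anxa1a* (454 cells) and one led by the neuregulin gene *nrg1* (232 cells). Together they held more cells than the valve endocardial-like class of 48 hpf used above (613 cells). *nr2f1b* was at 47.9 CPM (41.6–54.9) in the former and 13.2 CPM (9.23–18.4) in the latter, a ratio of 3.62 (2.52–5.33). *nr2f1b* was itself among the 10 leading genes of the former, although it took no part in the clustering. *nr2f1a* was low in both and moved the same way, with 42 against 5 UMIs (9.63 against 1.89 CPM, ratio 5.09, 2.02–16.5). The valve endocardial-like class had only 29 *nr2f1a* UMIs at 48 hpf, so part of the 42 came from cells outside that class. Their part in this ratio was not tested. *nr2f2* did not differ beyond counting error, at 43.5 and 40.1 CPM (ratio 1.09, 0.852–1.39). This comparison was chosen after its values were seen.

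Lymphatic endothelial-like cells were compared with all other non-blood cells of their library. *nr2f1a* was 8.41-fold higher at 48 hpf (7.45–9.48) and 8.26-fold higher at 72 hpf (6.91–9.82). *nr2f2* was 2.95-fold (2.61–3.32) and 3.11-fold (2.52–3.80) higher. *nr2f1b* went the other way at 48 hpf, with 2.25 against 17.3 CPM and a ratio of 0.130 (0.0420–0.306). At 48 hpf 7.70% of genes were higher and 7.41% lower, and 3 of the COUP-TF genes at 10 CPM passed, 2 higher and 1 lower. *nr2f5* was under 10 CPM at 48 hpf with a ratio of 2.04 (1.12–3.48). At 72 hpf *nr2f1a* and *nr2f2* were higher, against 12.1% of genes higher and 14.3% lower. There *nr2f5* had a ratio of 5.94 (2.43–12.6), on 8 UMIs in the lymphatic cells. It reached 10 CPM only in these cells (11.5 against 1.94 CPM), so its higher call is no separate evidence.

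Of 14 compared venous genes 11 were higher at 48 hpf (median log2 ratio 2.66, beside 0.02 over all genes). At 72 hpf it was again 11 of 14 (median 3.52, beside 0.00). The venous list shares *flt4*, *lyve1a*, *lyve1b*, *stab1*, *stab2*, *mrc1a* and *dab2* with the markers used to name the class. Its counts and medians are therefore no separate evidence. Of the retinoic acid genes 4 of 5 were higher and 1 lower at 48 hpf (median 1.18). At 72 hpf 3 of 8 were higher and 3 lower (median 0.27). Of genes that did not name it, *nrp2b*, a VEGF-C coreceptor gene, had 231 against 5.09 CPM at 48 hpf, and *ephb4b*, an ephrin receptor gene of veins, 95.3 against 38.4 CPM. The transcription factor genes *sox18* (18.0 against 2.74 CPM) and *sox7* (1027 against 428 CPM) were also higher. Of 15 arterial and Notch genes 4 were higher and 6 lower at 48 hpf. *hey2* had 45.0 against 175 CPM at 48 hpf, and at 72 hpf no UMI in the lymphatic cells against 92.5 CPM.

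The lymphatic endothelial-like class was not uniform at 48 hpf. Clustering that library alone set apart 28 cells led by *tlx2*, with *stab2* among their 10 leading genes, in which *nr2f1a* was at 81.4 CPM (56.1–114) against 242 CPM (218–268) in the other 147 lymphatic-like cells, a ratio of 0.336 (0.228–0.481). *nr2f2* did not differ beyond counting error (178 against 145 CPM, ratio 1.23, 0.929–1.61). These 28 cells also held most of the *hey2* of the lymphatic-like cells, with 92 UMIs (227 CPM) against 6 UMIs (3.82 CPM) in the other 147. This comparison, too, was chosen after its values were seen. In *nr2f1a* the 28 cells stood above the pooled *mcm5*/*fstl1a* cluster of the same library (30.5 CPM). They were not distinct from the *dcn*-led cells of the same clustering, described below, which had 59.1 CPM with an overlapping interval.

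Blood-like cells had nearly none of the 4 transcripts. Compared with the other 72 hpf cells *nr2f1a* was 47.9-fold lower and *nr2f2* 20.3-fold lower. Without the 5% of cells with most UMIs, which left 213 blood-like cells, the levels were 2.06 against 33.9 CPM for *nr2f1a* and 4.52 against 51.4 CPM for *nr2f2*, still lower but by less. In the same comparison over all cells 22.1% of genes were higher and 32.2% lower, so lower levels in blood-like cells were common among genes. Both COUP-TF genes at 10 CPM were lower. *nr2f6a* was not (ratio 0.857, 0.719–1.02), with 165 UMIs in blood-like cells, and *nr2f6b* had no UMI in them, against 13.4 CPM in the others. All 11 compared venous genes were lower as well, and 16 of 17 arterial and Notch genes.

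The UMIs that blood-like cells did hold were uneven. At a Leiden resolution of 1.0, 75 cells led by the thrombocyte genes *itga2b* and *mpl* had 4 UMIs of *nr2f1a* (7.13 CPM, 1.94–18.3) and 9 of *nr2f2* (16.0 CPM, 7.34–30.5), the latter in 3 cells. The 211 erythroid-led cells had 1 and 6 UMIs, the 79 cells led by *coro1a* and *cd7al* had none of either, and 23 macrophage-led cells had 0 and 3. The endocardial marker *vcam1b* was also highest in the first of these, with 35.7 CPM in the thrombocyte-led, 4.16 CPM in the erythroid-led and 3.18 CPM in the *coro1a*-led cells. Its part in these counts was not tested. At 48 hpf the 15 blood-like cells had 1 UMI of *nr2f1a* and none of the other 3 genes.

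Over all cells of the 48 hpf library, 5.80% of the cells with a *nr2f1a* UMI also had one of *nr2f1b*, against 12.5% of the cells without, and 33 cells had both. With cells thinned to 2000 UMIs 1 cell had both, and the shares were 0.610% and 3.68%. The classes did not all follow the pooled values. The shares were 4.69% and 7.15% in the *mcm5*/*fstl1a* cluster, 9.49% and 17.2% in the G2/M-like cells, 2.03% and 2.08% in the lymphatic endothelial-like cells, and 20.8% and 21.4% in the valve endocardial-like cells, where *nr2f1b* was highest. At 72 hpf this valve class had the reverse order, 33.3% against 7.82%, on 9 cells with *nr2f1a*.

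*nr2f2* was found in 54.8% of the 48 hpf cells with *nr2f1a* against 31.6% of the others, and in 37.4% against 20.3% at 72 hpf. Thinned, the shares over all cells were 14.6% and 9.56% at 48 hpf. Within classes at this equal depth few cells had both genes, so no difference between classes is read from the shares. They were 8.45% and 9.40% in the *mcm5*/*fstl1a* cluster (6 cells with both). In lymphatic endothelial-like cells at 48 hpf they were 22.4% and 18.8% (13 cells with both). In G2/M-like cells the shares were 17.2% and 13.2% at 48 hpf (5 cells with both) and 5.26% and 10.0% at 72 hpf (1 cell). Also at 72 hpf, they were 21.3% and 14.5% in *vcam1b* EdCs (10 cells) and 14.4% and 11.5% in *aqp8a.1*/*wnt5b* EdCs (15 cells). The lymphatic endothelial-like cells of 72 hpf had 25% and 26.9% (10 cells). With all UMIs, at unequal depth, the cells with *nr2f1a* had the higher share in each of these classes.

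Clustered alone, the 48 hpf library gave one group of 521 cells led by *dcn*, which encodes the proteoglycan decorin (*fstl1a* endocardial-like by its markers), and another of 473 cells, unnamed by its markers, led by *rhag* and the ETS factor gene *etv4*. *nr2f1a* was at 59.1 CPM (52.5–66.2) in the former and 7.64 CPM (5.40–10.5) in the latter, a ratio of 7.73 (5.50–11.1). *nr2f1b* was at 4.40 and 16.9 CPM, 3.83-fold lower in the *dcn*-led cells (2.37–6.44). *nr2f2* was modestly higher in the *dcn*-led cells, at 70.5 against 51.8 CPM (ratio 1.36, 1.15–1.60). *CR751602.2*, the gene with the pattern most like *nr2f1a* (below), was also among the 10 leading genes of the *dcn*-led cells. Only the NR2F genes were kept out of the clustering, so *CR751602.2* was free to shape these groups. Its part in the *nr2f1a* ratio was not tested.

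Between these groups 1.98% of genes were higher and 2.97% lower, and of the 3 COUP-TF genes at 10 CPM 1 was higher, 1 lower and 1 neither. When family genes were allowed among the clustering genes, a cluster led by *col18a1b* and *rhag* with 964 cells was named valve endocardial-like, so the *rhag*-led cells cannot be called chamber or valve from these markers. *hey2* was at 11.2 CPM in the *dcn*-led and 130 CPM in the *rhag*-led cells, and the Notch ligand gene *dll4* at 382 and 612 CPM. This comparison was chosen after its values were seen.

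**Figure D4:**
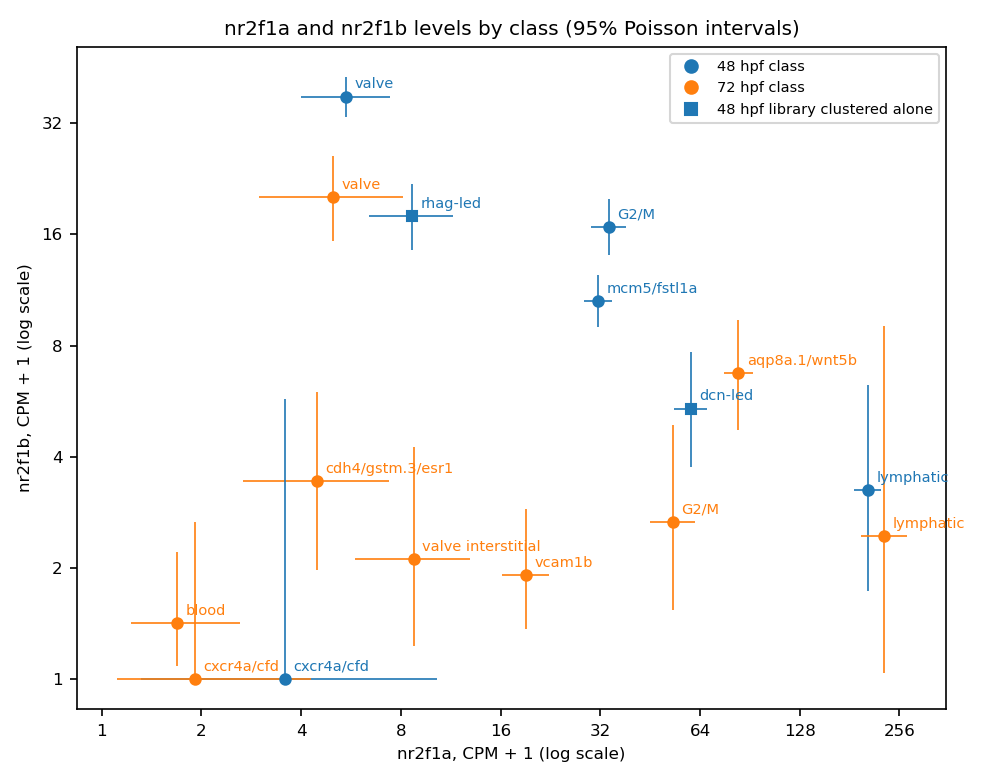
Level of *nr2f1a* (x axis) and *nr2f1b* (y axis), both as CPM + 1 on log scales, in each class at 48 hpf (blue circles) and 72 hpf (orange circles) and in the groups led by *dcn* and *rhag* from the 48 hpf library clustered alone (blue squares), with 95% Poisson intervals. Lymphatic endothelial-like cells lie at the lower right (205 and 2.25 CPM at 48 hpf) and valve endocardial-like cells at the upper left (4.48 and 36.8 CPM).

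Age was compared only within classes that had cells in both libraries, and each age is 1 library. In lymphatic endothelial-like cells *nr2f1a* and *nr2f2* did not differ beyond counting error between 72 and 48 hpf, with ratios of 1.12 (0.929–1.34) and 0.973 (0.773–1.22), and *nr2f5* had a ratio of 1.60 (0.594–3.97). None of the 3 passed 2-fold, whereas 18.2% of genes were higher and 12.7% lower. The cells of each age came mostly from a cluster of their own.

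In valve endocardial-like cells, again from a cluster per library, *nr2f2* was lower at 72 hpf, with a ratio of 0.314 (0.214–0.447). *nr2f1b* had a ratio of 0.523 (0.381–0.707), just short of 2-fold once 1 was added to each CPM, and *nr2f1a* one of 0.890 on 11 against 29 UMIs. Of the compared genes 11.1% were higher and 5.41% lower, and of the 2 COUP-TF genes at 10 CPM 1 was lower. Over cells scored as G1 alone *nr2f1b* also passed, at 20.3 against 44.0 CPM. With family genes allowed among the clustering genes, the 48 hpf class grew to 1268 cells and the *nr2f1b* levels were close, at 22.7 against 24.8 CPM. At resolution 0.3 the class held 773 cells at 72 hpf but only 7 at 48 hpf, so the ages could not be compared.

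In G2/M-like cells *nr2f1b* was lower at 72 hpf, with 1.66 against 15.8 CPM and a ratio of 0.105 (0.0335–0.252). *nr2f1a* had a ratio of 1.58 (1.29–1.94) and *nr2f2* one of 1.14 (0.958–1.34). Here 8.82% of genes were higher and 5.29% lower, and of the 3 COUP-TF genes at 10 CPM 1 was lower. Valve genes also differed between the ages in this class, which rests on cycle genes. At 48 hpf *alcama*, *has2* and *hey2* had 447, 100 and 132 CPM, and at 72 hpf 74.7, 39.8 and 44.5 CPM. Other valve markers went the other way, with 49.3 and 393 CPM for *crip1* and 4.37 and 78.0 CPM for *spp1*. *nfatc1* had 28.5 and 49.5 CPM and *notch1b* 197 and 209 CPM. The remaining markers of the valve endocardial list were lower at 72 hpf. The part of valve-like cells in the *nr2f1b* ratio was not tested. The classes differed in depth (median 15218 UMIs at 48 hpf and 9856 at 72 hpf), and thinned to 2000 UMIs the levels were 33.1 and 38.2 CPM for *nr2f1a* and 76.3 and 53.8 CPM for *nr2f2*, at 48 and 72 hpf.

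Cells outside the valve, lymphatic endothelial-like and blood-like classes could be set across ages by the marker gate for *aqp8a.1* and *wnt5b*. It gave 403 cells at 48 hpf and 316 at 72 hpf. Of the 403 cells, 230 lay in the *mcm5*/*fstl1a* cluster, and there *nr2f1a* was at 25.8 CPM, *nr2f1b* at 10.0 CPM and *nr2f2* at 58.6 CPM. These 230 cells held 26 of the 83 *nr2f1b* UMIs of the 403 cells. Valve-like cells in other classes, such as the G2/M-like class, could pass the gate. Their part in the *nr2f1b* ratio was not tested. At 48 hpf *aqp8a.1* itself was highest in the valve endocardial-like class (706 CPM), which the gate leaves out. *nr2f1a* was 2.43-fold higher at 72 hpf (1.94–3.04; 70.3 against 29.0 CPM over all 403 cells), *nr2f1b* had a ratio of 0.282 (0.130–0.545; 4.29 against 15 CPM), and *nr2f2* did not differ beyond counting error (1.18, 0.974–1.44). In this comparison 10.8% of genes were higher and 5.28% lower, and of the 3 COUP-TF genes at 10 CPM 1 was higher, 1 lower and 1 neither. A gate on UMIs takes more cells from a deeper library, and its part in these ratios was not tested. For *vcam1b* only 4 cells passed the gate at 48 hpf, too few to compare.

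**Figure D5:**
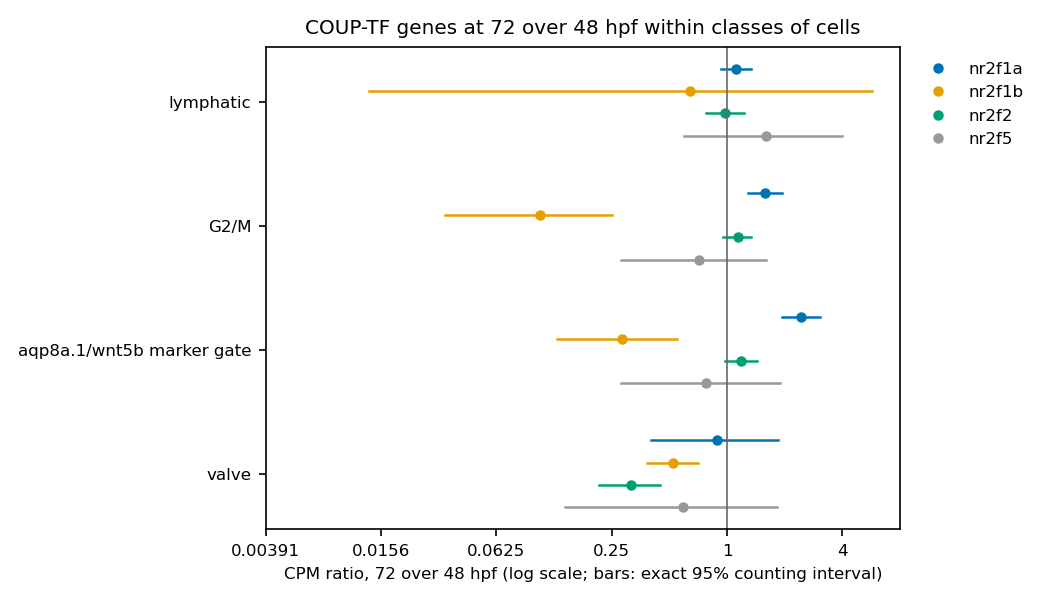
Ratio of the CPM at 72 hpf to that at 48 hpf (x axis, log scale) for each COUP-TF gene in 4 classes of cells, with bars for the exact 95% counting interval. *nr2f1b* lies below 1 in G2/M-like, gated *aqp8a.1*/*wnt5b* and valve endocardial-like cells (0.105, 0.282 and 0.523), and *nr2f2* lies apart from 1 only in valve endocardial-like cells (0.314).

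Across the 14 groups of at least 50 cells (cluster and library), log2(CPM + 1) of *nr2f1a* and *nr2f2* had a Pearson correlation of 0.90, *nr2f1a* and *nr2f1b* one of 0.15, and *nr2f1b* and *nr2f2* one of 0.32. Groups share libraries and depth, so these values are descriptions. Of 4088 genes at 50 CPM or more in some group, those most like *nr2f1a* were *CR751602.2* (0.951), *robo1* (0.937), which encodes a guidance receptor, and *gsta.1* (0.910), a glutathione S-transferase gene. *CR751602.2* was at 199 CPM in lymphatic endothelial-like cells at 48 hpf, 53.7 CPM in *aqp8a.1*/*wnt5b* EdCs and 1.70 CPM in *vcam1b* EdCs. Its identifier carries the clone name si:dkey-172f14.2 in the symbol table, and si:dkey-172f14.1 is a synonym of *arb2a*, the protein-coding gene next to *nr2f1a* in RefSeq (assembly GRCz12tu). Whether reads of these genes are shared was not tested. Those most like *nr2f2* were *lsp1b* (0.939), *si:ch211-284f22.3* (0.931) and *chmp6b* (0.922), a membrane-remodelling gene. *nr2f1b* and *nr2f5* stayed under 50 CPM in every group, so none were named for them.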

How the data were processed

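The values deposited by the authors were unnormalised UMI counts for each gene in each cell, from 10x Chromium 3′ v3.1 libraries of sorted cells, with 1 lane per age. The submitters' processing notes name danRer11, STARsolo and Scanpy, with no role, and versions are not given in the sources used here. All deposited barcodes were used, which were slightly more at 48 hpf than the cells counted in the study's text and the same number at 72 hpf. The methods gated doublets during sorting, and no doublet caller was run here.

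Each cell was scaled to a total of 10000, and log values of 2000 variable genes without the 6 NR2F genes were clustered with scanpy 1.11.5 (30 components, 15 neighbours, Leiden resolution 0.6). A cluster took the name of the list with most hits among its 50 leading genes, with at least 3 hits and no tie. It stayed unnamed when another list led among the first 10. Class names were rebuilt here, so they may differ from the study's. The named G2/M class rests on cycle genes.

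UMIs were summed per class and library and given as CPM with exact Poisson intervals. Shares have Clopper-Pearson intervals, and ratios exact conditional intervals (scipy 1.17.1). Whether strand was used in counting is not given in the sources used here, and reads from regions shared by near-identical genes could be split or lost. Genes named are the COUP-TF family, the 3 genes most like each member, the genes of the cofactor, venous, arterial and Notch and retinoic acid lists with extreme ratios, and leading genes of classes. Genes of these lists named outside the comparison of *aqp8a.1*/*wnt5b* with *vcam1b* EdCs were picked after their values were seen. The members and lists were chosen with earlier results of these data known. The ratio code was tested on simulated counts. Alternatives were other resolutions, each library clustered alone, family genes among the clustering genes, thinned cells, means over cells, G1 cells only, removal of the 5% of cells with most UMIs, marker gates, other minimum levels and other added constants.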

Additional observations from a re-analysis of the deposited data

Results flagged for a closer look

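The EAR2-type receptor gene *nr2f6b* differed in direction between classes. Its CPM ratio of 72 over 48 hpf was 1.95 (1.17–3.19) in lymphatic endothelial-like cells (40.3 against 20.7 CPM), 0.673 (0.468–0.950) in valve endocardial-like cells (15.6 against 23.2 CPM) and 0.238 (0.120–0.431) in G2/M-like cells (3.98 against 16.7 CPM). With 1 library per age, the difference between the classes was not tested.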

How the results depend on the processing

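Most of 72 recomputed counts were of COUP-TF genes past 2-fold. The rest were of genes most like *nr2f1a* or *nr2f2* that still led under other settings. Of the 72, 71 stayed within 1.5 times. The exception was valve endocardial-like cells at 72 over 48 hpf, where cells scored as G1 alone gave 2 genes and all cells 1. Of 272 recomputed log2 ratios, 242 lay inside the interval of the value reported and 30 outside. In the comparisons between or within classes, 16 COUP-TF ratios past 2-fold were recomputed 122 times. All 122 kept their direction and stayed past 2-fold. Age ratios of gated cells and ratios of gated G2/M-like cells were not recomputed. Nor were ratios between groups of the 48 hpf library clustered alone. In valve endocardial-like cells the age ratio of *nr2f1b* depended on the clustering, with a log2 value of −0.12 when family genes were allowed among the clustering genes and the 48 hpf class grew to 1268 cells. For lack of at least 20 cells, 7 comparisons were not run, among them the *aqp8a.1*/*wnt5b* comparison at resolution 0.3, which gave no such class. Depth limits *nr2f5* in every class and *nr2f1b* outside the valve endocardial-like cells and the G2/M-like and *mcm5*/*fstl1a* cells of 48 hpf. No paired analysis was possible because each age had 1 library.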
